A study of Mus musculus with 4 samples.

Results

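Serpins are a family of protease inhibitors and related proteins, and the 63 genes of the mouse family found in the deposited count table are described here in sorted hair follicle stem cells with and without regulatory T cells. Members were taken by symbol, as every row whose name starts with Serpin, 63 of 24084 gene rows. The clades a to i follow the letter after that stem. The 4 libraries came from stem cells of dorsal skin epidermis of C57BL/6 mice aged 7 to 10 weeks, collected on day 4 after depilation, which removes the hair shafts and starts a new growth phase. Both groups received diphtheria toxin at 15 ng/g intraperitoneally. The 2 WT libraries (A and C) are labelled as having regulatory T cells. The 2 Foxp3-DTR libraries (C and D) are labelled as depleted of them, since in that genotype the toxin's receptor is made under the control of Foxp3, the transcription factor of regulatory T cells. The comparison asks how the stem cells' serpin expression differs when regulatory T cells have been removed.

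A typical serpin presents a flexible loop near its C-terminal end, the reactive centre loop, as bait. A protease that cuts this loop is dragged across the serpin and trapped in a covalent complex, so each inhibitor molecule is used once and the loop's sequence decides which protease is caught. Clade a holds secreted plasma inhibitors such as antitrypsin and antichymotrypsin (Serpina1 and Serpina3), many of them acute phase proteins. Clade b holds intracellular serpins that guard cells against lysosomal and granule proteases, and several are made in keratinocytes. Clades c to i hold inhibitors of coagulation, fibrinolysis and complement, and members such as Serpinh1 that inhibit no protease.

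Gene counts ranged from 13911765 to 15923154 per library, and 3 counts, the most that a count of 0 allows, came to between 0.185 and 0.213 CPM (counts scaled to a common depth with TMM factors). Special rows, which hold reads given to no gene, took 62.0% to 70.1% of the table's counts, of which alignments to several places were the largest share (51.8% to 61.3% of the table). Hair follicle stem cell markers (Cd34, Krt15, Lgr5, Sox9 and 5 others) were present in every library, with none of the 9 past the threshold. Their levels were not all alike. Lhx2, at 789 and 804 CPM in WT and 425 and 439 in Foxp3-DTR, was lower without overlap, as were Nfatc1, Krt5 and Sox9. Cd34, at 936 and 1216 CPM in WT and 1709 and 1625 in Foxp3-DTR, was higher without overlap, as was Itga6. Krt14, Krt15 and Lgr5 overlapped. Foxp3 had 0 counts in all 4 libraries, which in sorted epithelial cells does not check the depletion. Xist stood at 861 and 2482 CPM in the WT libraries and at 1.86 and 0 CPM in the Foxp3-DTR libraries. Counts of 4 Y-linked genes were 0 in both WT libraries and 4814 and 3663 in the Foxp3-DTR libraries. The titles also carry DEP2 in both WT and DEP3 in both Foxp3-DTR libraries, so genotype, sex and whatever that code marks cannot be told apart in any result below. No source used here says that the libraries came from separate mice, and p-values measure the spread between these libraries only.

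The Serpina3 genes are shown by the coding sequence of their hinge and reactive centre loop, the bait that sets each inhibitor's target, because these related copies made up most of the difference in summed serpin level between the groups. In Serpina3n the stretch covers coding bases 1099 to 1170 of 1254 in GENCODE M21 (GRCm38). Sequences run 5′ to 3′ on the coding strand, and capitals mark bases unlike Serpina3n in the alignment. In Serpina3f, capitals also mark inserted bases, which are aligned to no base of Serpina3n.
Serpina3n: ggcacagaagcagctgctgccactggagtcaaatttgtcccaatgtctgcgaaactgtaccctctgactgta
Serpina3i: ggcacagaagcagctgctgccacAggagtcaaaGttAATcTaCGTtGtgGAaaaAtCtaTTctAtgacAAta
Serpina3m: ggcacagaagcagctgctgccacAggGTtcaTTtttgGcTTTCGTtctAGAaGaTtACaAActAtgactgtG
Serpina3g: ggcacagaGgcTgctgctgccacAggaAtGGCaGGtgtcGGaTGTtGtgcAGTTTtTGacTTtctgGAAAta
Serpina3f: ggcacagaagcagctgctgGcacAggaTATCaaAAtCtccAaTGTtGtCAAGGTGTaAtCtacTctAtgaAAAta
Serpina3k: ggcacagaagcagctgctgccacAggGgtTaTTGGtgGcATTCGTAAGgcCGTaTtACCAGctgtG
Of the first 27 bases, which code for the hinge that lets the loop insert, 1 differed from Serpina3n in Serpina3i, 2 in each of Serpina3m, Serpina3f and Serpina3k and 3 in Serpina3g. In the 45 alignment positions of Serpina3n that follow, 18 bases differed in Serpina3i, 21 in Serpina3m, 24 in Serpina3f and 25 in each of Serpina3g and Serpina3k. Gaps were not counted as differences, and the stretch has 66 bases in Serpina3k and 75 in Serpina3f, against 72 in Serpina3n. These 5 copies were thus closer to Serpina3n in the hinge than in the bait. Other copies were less close in the hinge, with 10 of the 27 bases unlike Serpina3n in Serpina3a, 8 in Serpina3b, 7 in Serpina3j and 4 in Serpina3c. After the hinge, 23 bases differed in Serpina3a, 17 in Serpina3b and 20 in each of Serpina3j and Serpina3c, whose stretch has 63 bases. These copies too were closer to Serpina3n in the hinge than in the bait. Serpina3b had fewer differences in the bait than any of the 5. Over the whole coding sequence of the 10 Serpina3 members annotated as protein coding, identity ran from 69.27% (Serpina3a with Serpina3g) to 91.75% (Serpina3k with Serpina3m). Serpina3h is annotated as a transcribed unprocessed pseudogene, so its rows hold RNA and no stated protein.

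This likeness bears on the counts. Of the 100-base stretches in a gene's annotated transcripts, 6.09% in Serpina3m, 4.85% in Serpina3k, 3.60% in Serpina3h, 3.49% in Serpina3g, 3.40% in Serpina3f and 2.25% in Serpina3i also occur in another gene, mostly a neighbouring copy. In Serpina3n the share was 0.204%. With 50-base stretches the shares rose to 21.9% in Serpina3h, 19.1% in Serpina3m, 15.9% in Serpina3i and 15.5% in Serpina3g, against 6.90% in Serpina3n. The read length is not given in the sources used here. Gene by gene values of the copies are therefore uncertain, most of all for Serpina3k and Serpina3m, whose annotated models overlap on the same strand.

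Of the 63 members, 21 had no counts in any library, 42 had at least 1 count and 31 passed the filter on low counts and were tested. The 21 members without counts included Serpina1a to Serpina1f, Serpina6, Serpina7, Serpina10, Serpina11 and Serpind1, many of them plasma proteins made by the liver. Also among them were 6 of the Serpinb9 copies (Serpinb9b to Serpinb9g). Of the 50-base stretches, 79.3% in Serpina1c, 57.6% in Serpina1a, 78.7% in Serpinb9f and 54.9% in Serpinb9g also occur in another gene. Reads that fit several places were given to no gene, so 0 counts in such copies can miss RNA. Serpina6, Serpina7 and Serpind1 share no such stretch. Another 11 had counts but were under the filter, with at most 46 counts over the 4 libraries. By clade, 11 of 25 members were tested in clade a, 14 of 27 in clade b, 2 of 3 in clade e, 1 of 2 in each of clades f and i, and the only members of clades g and h. The only members of clades c and d were not tested. Of the tested members, 1 (Serpina3m) passed the filter through the Foxp3-DTR libraries alone, so that it had to differ. Serpina3f was over the filter's level of about 0.67 CPM in WT C but not in WT A. The WT libraries alone would not have let it in.

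By edgeR's quasi-likelihood test over 12920 genes, adjusted after Benjamini and Hochberg, 5 members were higher in Foxp3-DTR and none lower. They were Serpina3g, Serpina3h, Serpina3i and Serpina3m, 4 neighbours of 1 gene cluster, and Serping1, the inhibitor of the first complement component. The number higher was 8 without WT A, 9 without WT C, 5 without Foxp3-DTR C and 8 without Foxp3-DTR D. The 5 are 16.1% of the 31 tested, where 0.82% of all tested genes were higher and 0.426% lower at the same threshold of 0.05. Leaving out Serpina3m, which the filter let in on its Foxp3-DTR counts alone, 4 of 30 (13.3%) were higher. At an unadjusted p under 0.05, 11 members (35.5%) were higher against 6.76% of all genes, and 4 members (12.9%) were lower against 7.89%. DESeq2, run as an alternative, put 10 members (32.3%) higher and 2 (6.45%) lower, against 3.75% and 3.97% of all genes. Both libraries of one group lay above both of the other in 11 members with Foxp3-DTR higher, where this held for 22% of all genes. The same held in 5 members with WT higher, against 23.7% of all genes. Serpina3m is also among the higher members at the unadjusted p, with DESeq2 and without overlap. So is Serpina3f, which the WT libraries alone would not have brought past the filter. The median log2 fold change was 0.07 over the 31 tested members and -0.01 over all genes. It was 3.15 in clade a, also with Serpina3m at its lower bound, and 0.03 in clade b. The members were chosen with results of these libraries known, so these counts are a description.

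**Figure D1:**
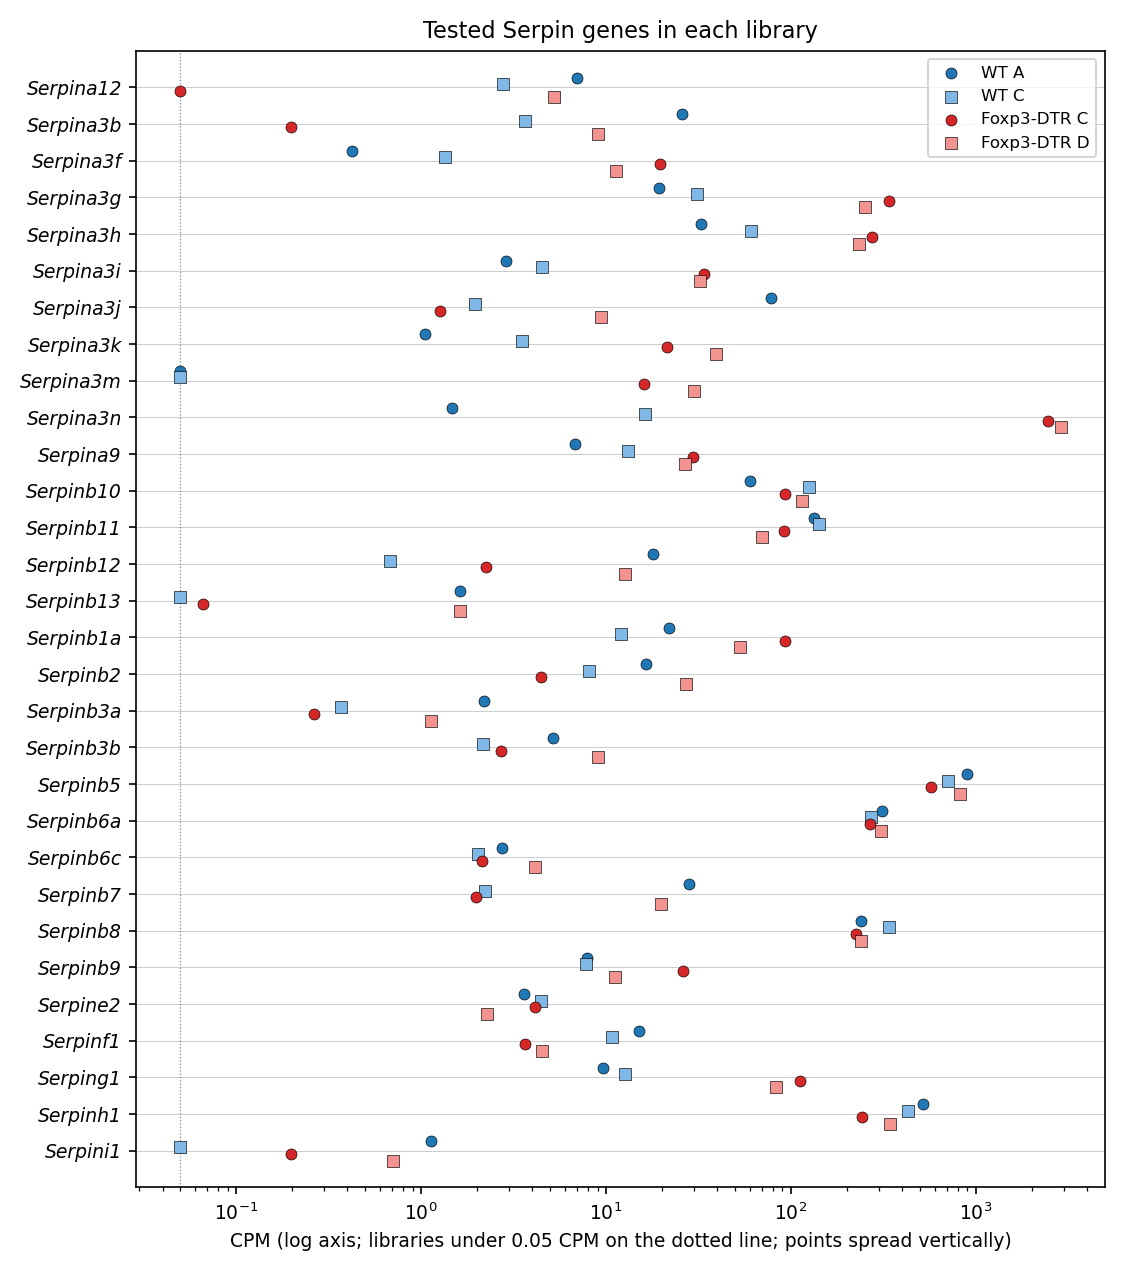
Level of tested serpin genes in each library, in CPM on a log axis, with 1 row per gene in clade order and 1 point per library (circles: WT A and Foxp3-DTR C, squares: WT C and Foxp3-DTR D). The Foxp3-DTR points of Serpina3f, Serpina3g, Serpina3h, Serpina3i, Serpina3k, Serpina3m, Serpina3n and Serping1 lie far to the right of the WT points, while Serpinb5, Serpinb6a and Serpinb8 lie close together in all 4 libraries.

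Serpina3n was the highest serpin of the Foxp3-DTR libraries and far lower in both WT libraries. This secreted inhibitor of cathepsin G and other leukocyte proteases lies on chromosome 12 at 104406729 to 104414329, plus strand. It had 21 and 263 counts in WT A and WT C and 37242 and 40592 counts in Foxp3-DTR C and Foxp3-DTR D. In CPM these were 1.48, 16.2, 2469.7 and 2876. The groups lay far apart, and the WT libraries also lay far apart from each other, with WT A at 0.0914 times WT C. The log2 fold change was 8.23 ± 1.46 (SE, n = 2 against 2), and edgeR's adjusted p was 0.127, so that the gene with the most counts of the family did not pass the threshold. The log2 fold change was 7.38 without WT A and 10.82 without WT C. It was 8.34 without Foxp3-DTR C and 8.13 without Foxp3-DTR D. Each of these fits takes its spread from the group left whole. They therefore cannot show whether the difference exceeds the spread in the reduced group. DESeq2 gave an adjusted p of 9.26e-10 and limma-voom 0.0146. By CPM per kilobase of exon, ranked over the 22855 genes with an annotated length, Serpina3n went from places 11152 and 6107 in WT A and WT C to places 19 and 20 in the Foxp3-DTR libraries.

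Serpina3g, known as Spi2A and unusual in the clade as an inhibitor that acts inside the cell on cysteine cathepsins, rose 11.65-fold. It stood at 19.4 CPM in WT A and 31.1 in WT C, and at 338 and 251 CPM in the Foxp3-DTR libraries C and D (log2 fold change 3.54 ± 0.30, edgeR adjusted p = 0.00718). Serpina3h, the transcribed pseudogene next to it, stood at 32.5 and 61.1 CPM in WT and at 274 and 233 CPM in Foxp3-DTR (2.44 ± 0.32, edgeR adjusted p = 0.0373). In both genes every Foxp3-DTR library was above every WT library by more than the libraries of either group differed. Serpina3i, the next gene along, stood at 2.89 and 4.49 CPM in WT and at 33.7 and 32.0 CPM in Foxp3-DTR (3.15 ± 0.33, edgeR adjusted p = 0.0157). Its 2 Foxp3-DTR libraries were almost level with each other. These 3 genes passed the threshold in all 10 alternative analyses.

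Serpina3m had 0 counts in both WT libraries and 241 and 423 counts in Foxp3-DTR C and Foxp3-DTR D, or 15.98 and 29.97 CPM. Against the floor of 3 counts over the WT group it was at least 231-fold higher in Foxp3-DTR (edgeR adjusted p = 0.0108). It kept its call in 9 of 10 alternatives and lost it with limma-voom, at an adjusted p of 0.0626. Serpina3k, its closest copy and a plasma inhibitor of tissue kallikrein, stood at 1.06 and 3.51 CPM in WT and at 21.4 and 39.1 CPM in Foxp3-DTR. Its groups did not overlap either, but edgeR's adjusted p was 0.0587 at a log2 fold change of 3.71 ± 0.64. It passed in 5 of 10 alternatives, among them the fits that left out WT A (0.0428), WT C (0.0230) or Foxp3-DTR D (0.0382).

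Serpina3f stood at 0.422 and 1.35 CPM in WT and at 19.7 and 11.3 CPM in Foxp3-DTR (4.10 ± 0.67 on the log2 scale, edgeR adjusted p = 0.0502). It passed in 5 of 10 alternatives, among them the fits that left out WT C (0.0315) or Foxp3-DTR D (0.00709) and that with another scaling of the libraries, DESeq2's median-of-ratios factors (0.0483). Serpina3c, under the filter, had 0 counts in both WT libraries and 13 and 7 counts in Foxp3-DTR, at least 6.96-fold higher over the groups. With Serpina3n, 7 of the 9 tested Serpina3 genes had both Foxp3-DTR libraries above both WT libraries, an arrangement found in 22% of all genes. Among the 7 is Serpina3m, which had to differ by the way it passed the filter. Serpina3f is also among them, and its WT libraries alone would not have brought it past the filter.

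The remaining tested copies went another way. Serpina3b stood at 25.8 (A) and 3.63 CPM (C) in WT and at 0.199 (C) and 8.999 CPM (D) in Foxp3-DTR. Serpina3j stood at 78.4 (A) and 1.97 CPM (C) in WT and at 1.26 (C) and 9.35 CPM (D) in Foxp3-DTR. In both genes the groups overlapped, and the largest value was that of WT A. The log2 fold changes were -1.68 ± 1.88 and -2.92 ± 2.098 (edgeR adjusted p = 0.789 and 0.655). Without WT A they were 0.36 and 1.44, the other direction, again not past the threshold. Serpina3a had no counts.

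The cluster spans 301.6 kb of chromosome 12, from the start of Serpina3a at 104112724 to the end of Serpina3n at 104414329 (GRCm38), and all members but Serpina3c lie on the plus strand. Serpina3g, Serpina3h and Serpina3i, which passed the threshold, are neighbours with starts at 123.5, 135.2 and 150.4 kb. Serpina3j, with overlapping groups, starts at 201.8 kb between them and the pair Serpina3k and Serpina3m. Serpina3n starts at 294.0 kb, at the far end. Over the cluster's 11 genes, summed levels were 162 (A) and 123 CPM (C) in WT and 3174 (C) and 3491 CPM (D) in Foxp3-DTR. Without Serpina3n, the sums were 160 and 107 CPM in WT and 705 and 615 CPM in Foxp3-DTR. A read counted to the wrong copy among these 11 moves a gene's value but not this sum. The sum still lacks reads that fit several places and were given to no gene. Reads exchanged with related genes outside the 11, such as Serpina3e-ps, would also change it.

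**Figure D2:**
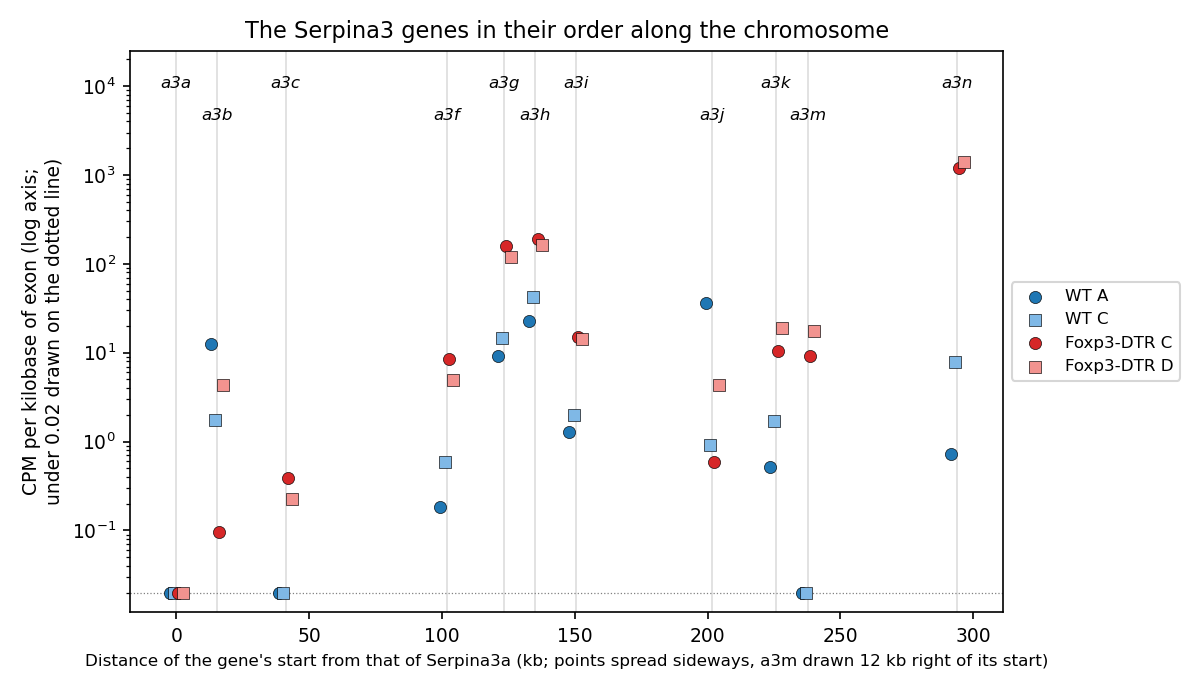
The 11 Serpina3 genes in their order along the chromosome: the x axis is the distance of each gene's start from that of Serpina3a in kb, the y axis the level in CPM per kilobase of exon on a log axis, with 1 point per library and libraries at 0 on the dotted line. In the 7 genes Serpina3f, Serpina3g, Serpina3h, Serpina3i, Serpina3k, Serpina3m and Serpina3n both red Foxp3-DTR points lie above both blue WT points, and Serpina3b and Serpina3j do not follow.

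Since these neighbours moved together, the 250 bases before each start in RefSeq's promoter table (GRCm38.p6) were searched on both strands for TTCNNNGAA, the palindrome bound by STAT factors, where N is any base. RefSeq entries matched 52 of the 63 members and 8 of the 11 Serpina3 genes. The motif was found in 8 members. Within the cluster these were Serpina3f, Serpina3g and Serpina3i, and not Serpina3a, Serpina3b, Serpina3c, Serpina3j and Serpina3n. The others were Serpina11, Serpina1f and Serpinb9c, which had no counts, and Serpinb2 and Serpinb6a, whose groups overlapped. It occurs in 7.02% of all 32851 promoter entries in windows of this length. The stretch that holds it is shown for the 3 genes, with the aligned stretch of Serpina3n, plus strand and 5′ to 3′, with the motif or the bases aligned to it in capitals.
Serpina3f chr12:104214398-104214457: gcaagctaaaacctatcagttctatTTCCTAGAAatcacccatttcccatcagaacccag
Serpina3g chr12:104236089-104236146: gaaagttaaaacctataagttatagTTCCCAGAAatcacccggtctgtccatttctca
Serpina3i chr12:104262995-104263054: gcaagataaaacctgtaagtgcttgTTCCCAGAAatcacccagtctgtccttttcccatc
Serpina3n chr12:104406560-104406619: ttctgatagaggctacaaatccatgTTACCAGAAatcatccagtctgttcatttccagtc
The motif's first base lies 121 bases before the start of Serpina3f, 33 before that of Serpina3g and 102 before that of Serpina3i. Serpina3n carries the same stretch 123 bases before its start with 1 substitution, C3A, counted from 1 at the motif's first base, with the motif's base named first. Elsewhere in its 250 bases these letters do not occur. Serpina3c, which was under the filter, holds the same letters as Serpina3n, with C3A, in its own 250 bases. The share of 7.02% covers exact matches only. How often promoters hold the motif with 1 substitution was not counted. In Serpina3f the match overlaps one to GAAANNGAA, a form of the element bound by interferon regulatory factors that occurs in 7.13% of all promoter entries and, within the cluster, also in Serpina3b, which did not pass the threshold. These matches describe the sequence only. The other context for the cluster is given by its companions in the acute phase response, below.

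Serping1 encodes the C1 inhibitor, the serpin that stops C1r, C1s, plasma kallikrein and factor XIIa, and lies on chromosome 2 at 84765387 to 84775444, minus strand. Its level was 9.57 CPM in WT A and 12.7 in WT C, and 112 and 82.7 CPM in the Foxp3-DTR libraries C and D. It rose 8.75-fold (log2 fold change 3.13 ± 0.27, edgeR adjusted p = 0.00672) and passed in all 10 alternatives. None of its 50-base stretches occurs in another gene, so that no near-identical copy bears on its counts. Among the proteases it acts on and their kin, from a list of 15 complement and contact proteases, 4 were tested and none passed. The one with the smallest p was C1ra, the mouse C1r, at 3.45 and 3.01 CPM in WT and 58.5 and 15.1 CPM in Foxp3-DTR (3.51 ± 0.70, edgeR adjusted p = 0.0854). The inhibitor passed the threshold and its target did not, but whether they differed from each other was not tested.

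The clade b serpins made up most of the family in WT. By CPM per kilobase of exon, the scale on which genes can be compared, Serpinb5 (maspin, an epithelial serpin that inhibits no protease) was the highest member in WT, at 326 in WT A and 258 in WT C, and stood at 207 and 299 in Foxp3-DTR C and Foxp3-DTR D. In CPM it stood at 897 and 709 in WT and 570.1 and 823 in Foxp3-DTR (-0.21 ± 0.25, edgeR adjusted p = 0.798). Serpinb6a, an intracellular inhibitor of cathepsin G, stood at 310 and 271 CPM in WT and 268 and 307 CPM in Foxp3-DTR (-0.02 ± 0.19, edgeR adjusted p = 0.983). The groups of both overlapped, and their difference was smaller than that between libraries of 1 group. Part of Serpinb6a is uncertain, since 25.1% of its 50-base stretches also occur in another gene. The largest share with 1 gene was 12.5%, with its overlapping neighbour Nqo2. Serpinb8, an intracellular inhibitor of furin, stood at 240.4 and 338 CPM in WT and 224 and 239.8 CPM in Foxp3-DTR (-0.32 ± 0.22, edgeR adjusted p = 0.598), so that its groups all but touched. Serpinb10 stood at 59.7 and 125 CPM in WT and 93.2 and 115 CPM in Foxp3-DTR (0.18 ± 0.36, edgeR adjusted p = 0.889), and its direction turned to -0.24 without WT A. Serpinb10 is annotated as a polymorphic pseudogene, so its RNA need not stand for a protein. Its annotated model overlaps Serpinb2 on the same strand, so reads of the pair are uncertain.

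Of the 14 tested clade b members 7 had a positive and 7 a negative log2 fold change, and none passed. Serpinb1a, the inhibitor of neutrophil elastase, stood at 21.8 and 11.99 CPM in WT and 92.4 and 53.1 CPM in Foxp3-DTR (2.11 ± 0.40, edgeR adjusted p = 0.0709). Its groups did not overlap, and it passed in 4 of 10 alternatives, among them without WT A (0.0455), without Foxp3-DTR D (0.00605) and DESeq2 (2.15e-05). Serpinb9, the inhibitor of granzyme B, stood at 7.88 and 7.81 CPM in WT and 26.1 and 11.2 CPM in Foxp3-DTR (1.25 ± 0.45, edgeR adjusted p = 0.264). Its Foxp3-DTR libraries lay farther from each other than the lower of them from WT. Serpinb11 stood at 133 and 143 CPM in WT and 91.6 and 69.4 CPM in Foxp3-DTR (-0.77 ± 0.20, edgeR adjusted p = 0.128), without overlap, and passed in 1 of 10 alternatives, DESeq2 (0.0215).

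Several other clade b serpins varied more between libraries of 1 group than between the groups. Serpinb7, expressed in the upper epidermis, stood at 28.2 (A) and 2.21 CPM (C) in WT and at 1.99 (C) and 19.9 CPM (D) in Foxp3-DTR. Serpinb12 stood at 18.0 (A) and 0.677 CPM (C) in WT and at 2.25 (C) and 12.6 CPM (D) in Foxp3-DTR. WT A and Foxp3-DTR D were high and the libraries lettered C low in both genes. WT A was more than 2-fold over WT C, and Foxp3-DTR D more than 2-fold over Foxp3-DTR C, in 10 of the 31 tested members (32.3%), against 3.02% of all tested genes. The 10 were Serpinb2, Serpinb3a, Serpinb3b, Serpinb7, Serpinb12, Serpinb13, Serpina3b, Serpina3j, Serpina12 and Serpini1. No tested member was more than 2-fold lower in both, against 1.04% of all genes. The test used the groups only, and this pattern was noticed in the libraries.

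Most markers of differentiated epidermis were high in the same libraries. Over 2-fold in both ratios were 7 of 9 tested markers of differentiating interfollicular epidermis and 5 of 8 of sebaceous gland and infundibulum. Among those that were not, Flg2 had a WT ratio of 1.32, and Defb6 and Awat2 had Foxp3-DTR ratios of 0.829 and 0.928. Krt10, a keratin of the layers above the basal one, had 4562 (A) and 249 CPM (C) in WT and 458 (C) and 3796 CPM (D) in Foxp3-DTR. All 9 markers of differentiating interfollicular epidermis found in the table had counts, with a summed level of 8645, 1030.0, 1249 and 7349 CPM in the same order. Of 10 markers of sebaceous gland and infundibulum 9 had counts, with sums of 2375, 217, 239.5 and 620 CPM, the pattern of Serpina3j with WT A far above the rest. The part of such cells in the serpin values was not tested. In these bulk samples fewer cells of a type and less RNA per cell cannot be told apart.

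**Figure D3:**
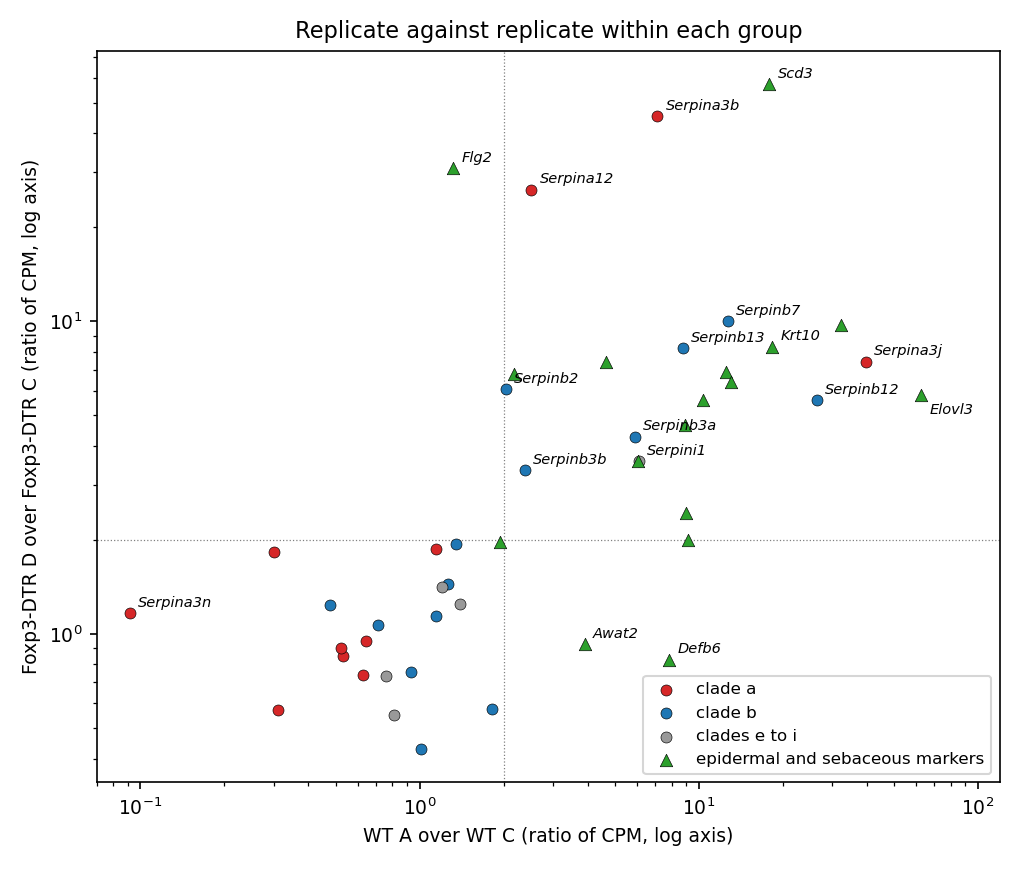
Ratio of the 2 libraries within each group for tested serpins: WT A over WT C on the x axis, Foxp3-DTR D over Foxp3-DTR C on the y axis, both ratios of CPM on log axes, with counts under 3 set to 3 and dotted lines at 2-fold. Green triangles are the tested markers of differentiating interfollicular epidermis and of sebaceous gland and infundibulum. The 10 serpins named in the upper right share that corner with 7 of 9 markers of the first list and 5 of 8 of the second, but not with Flg2, Defb6 or Awat2, and Serpina3n lies far left, since WT A held 0.0914 times the level of WT C.

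Among the other clades, Serpinh1, the collagen chaperone Hsp47 that stays in the endoplasmic reticulum and inhibits no protease, stood at 517 and 428 CPM in WT and 241 and 341 CPM in Foxp3-DTR. The groups did not overlap, but the log2 fold change of -0.70 ± 0.24 did not pass (edgeR adjusted p = 0.230). Serpinf1, the anti-angiogenic factor PEDF, stood at 15.0 and 10.8 CPM in WT and 3.65 and 4.53 CPM in Foxp3-DTR (-1.65 ± 0.41, edgeR adjusted p = 0.115). It passed with DESeq2 (0.0197) and in none of the other 9 alternatives. These genes and Serpinb11 are among the 4 members with an unadjusted p under 0.05 on the low side. Fibroblasts make both Serpinh1 and Serpinf1, and 8 fibroblast markers, of which 3 had no counts, summed to 39.99 and 53.4 CPM in WT and 27.9 and 31.8 CPM in Foxp3-DTR, lower in the Foxp3-DTR libraries. The sum is mostly Col1a1 and Col1a2, and 2 others went the other way: Pdgfra stood at 0.915 and 1.60 CPM in WT and 3.45 and 2.41 CPM in Foxp3-DTR, and Dcn at 0.563 and 0.369 CPM in WT and 1.06 and 0.638 CPM in Foxp3-DTR. Their part in these values was not tested. Serpine2 (protease nexin) overlapped between groups, and Serpini1 (neuroserpin) had at most 1.13 CPM in any library (-0.29 ± 1.69, edgeR adjusted p = 0.965).

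In clade a outside the Serpina3 cluster, 2 members were tested. Serpina9, first described in B cells, stood at 6.83 and 13.1 CPM in WT and 29.6 and 26.7 CPM in Foxp3-DTR (1.495 ± 0.37, edgeR adjusted p = 0.108), without overlap. It passed in 3 of 10 alternatives, among them without WT C (0.0406). Serpina12 (vaspin) stood at 6.97 and 2.77 CPM in WT and 0 and 5.24 CPM in Foxp3-DTR, with overlapping groups. Among members under the filter, Serpina5 had 0 counts in WT and 3 and 6 in Foxp3-DTR, and Serpinb3c 0 in WT and 12 and 3 in Foxp3-DTR. Serpinb6d and Serpinb1c had counts in WT A only, 46 and 19. Serpinc1 (antithrombin) had 16 counts in WT C and 5 in Foxp3-DTR C and none elsewhere.

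**Figure D4:**
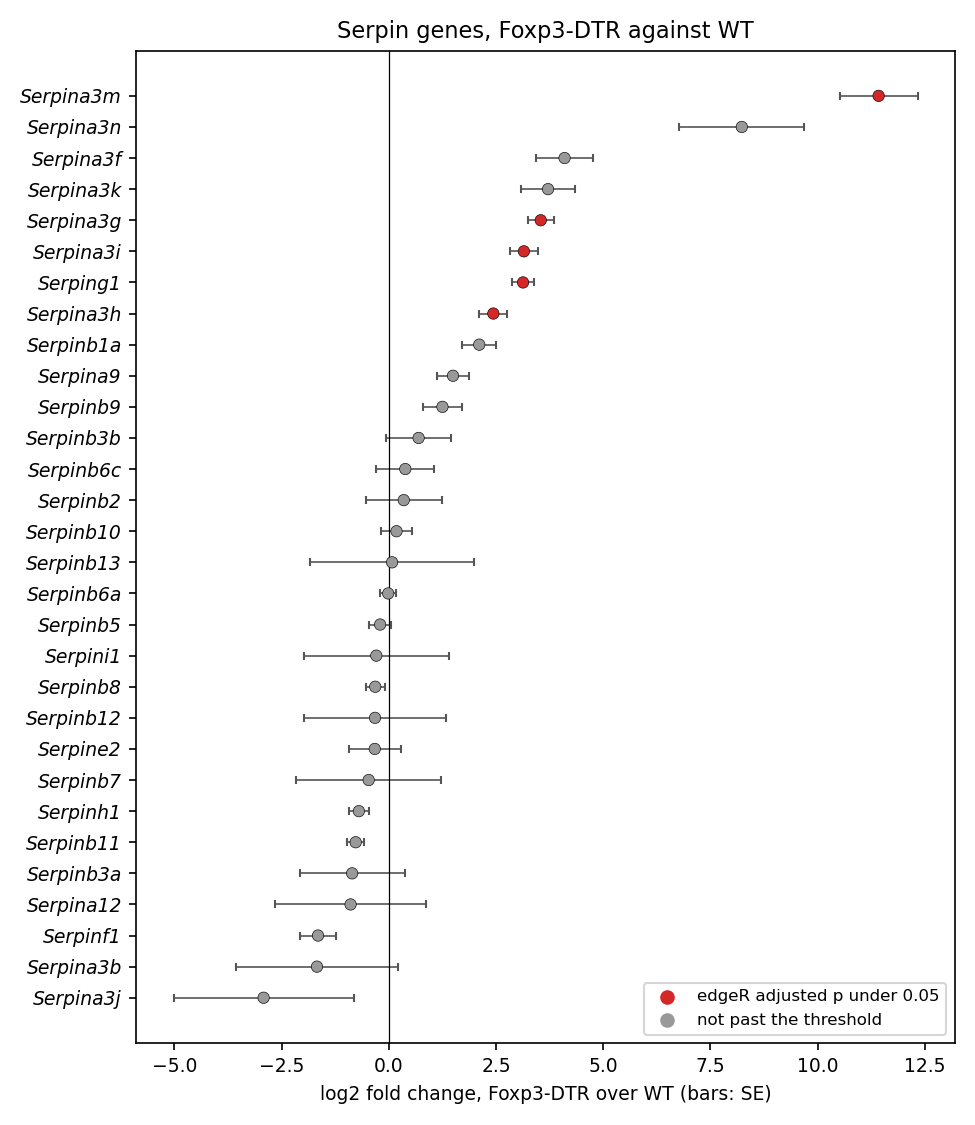
Log2 fold change of Foxp3-DTR over WT for tested serpin genes (x axis), sorted, with bars of 1 SE. The 5 red genes passed edgeR's adjusted threshold, Serpina3n has a large fold change with a wide bar, and the fitted value of Serpina3m rests on 0 counts in WT and depends on the prior count.

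The make-up of the family's RNA therefore differed between the groups. Summed over all members, the level was 873 and 759 CPM per kilobase in WT A and WT C and 2178 and 2461 in Foxp3-DTR C and Foxp3-DTR D. Clade b took 64.4% and 65.3% of that sum in WT and 19.7% and 21.7% in Foxp3-DTR. In its own level clade b stood at 562 and 495 CPM per kilobase in WT and 428 and 534 in Foxp3-DTR, with overlapping groups. Serpina3n took 0.0820% and 1.03% of the family's sum in WT and 54.9% and 56.6% in Foxp3-DTR, and the other Serpina3 genes 9.47% and 8.48% in WT and 18.2% and 14.1% in Foxp3-DTR. Serpinh1 took 24.2% and 23.1% in WT and 4.53% and 5.68% in Foxp3-DTR. The share of clade b was thus smaller in Foxp3-DTR although its own level overlapped between the groups.

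**Figure D5:**
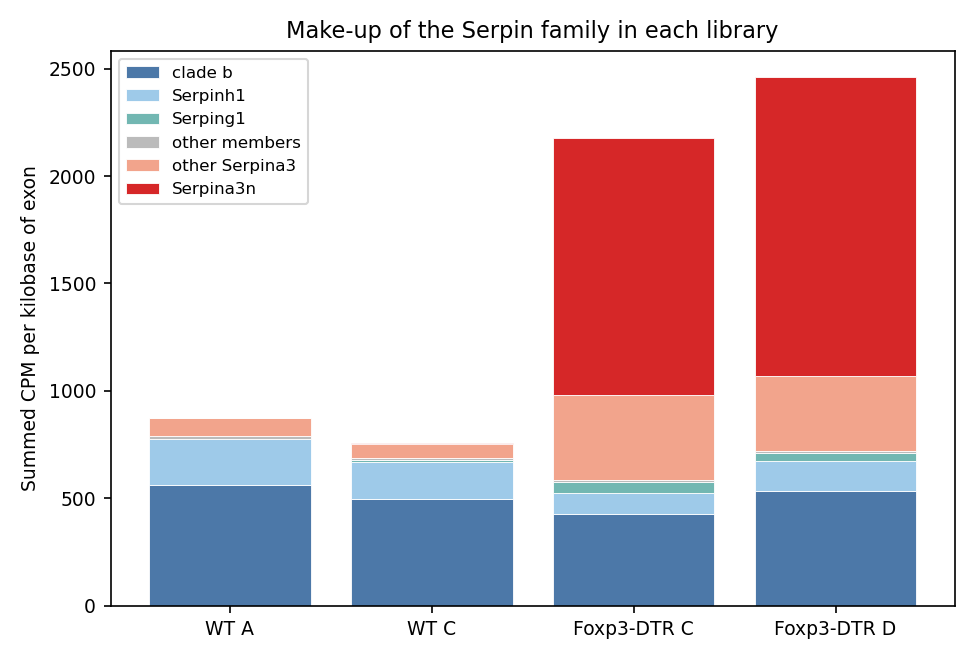
Summed level of the serpin family in each library, in CPM per kilobase of exon, stacked by clade b, Serpinh1, Serping1, other Serpina3 genes, Serpina3n and all other members. The bars reach 873 and 759 in WT and 2178 and 2461 in Foxp3-DTR, the clade b block keeps a similar height, and Serpina3n forms the largest block in both Foxp3-DTR libraries.

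The proteases that serpins trap and the genes that accompany Serpina3 were counted from lists chosen by function. The lists were drawn up with earlier results of these data known, so the counts are a description. Of 17 tested acute phase companions of Serpina3, 8 were higher in Foxp3-DTR and none lower, where 0.82% of all tested genes were higher and 0.426% lower. The list's median log2 fold change was 2.11, against -0.01 for all genes. The metallothioneins, metal-binding proteins, had the smallest p-values with Cebpd, a transcription factor of the acute phase response. Mt2 stood at 64.6 and 73.1 CPM in WT and 1154 and 1110.0 CPM in Foxp3-DTR (4.04 ± 0.21, edgeR adjusted p = 0.00307). Mt1 stood at 106 and 104 CPM in WT and 865 and 964 CPM in Foxp3-DTR (3.13 ± 0.20, edgeR adjusted p = 0.0033), and Cebpd at 9.64 and 13.2 CPM in WT and 175 and 144 CPM in Foxp3-DTR (3.80 ± 0.25, edgeR adjusted p = 0.0033).

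In a list of cathepsins and legumain, 1 of 10 tested was higher in Foxp3-DTR and none lower. Over all tested genes, 0.82% were higher and 0.426% lower. The gene was Lgmn, the cysteine protease legumain, at 50.5 and 59.0 CPM in WT and 128 and 151 CPM in Foxp3-DTR (1.35 ± 0.19, edgeR adjusted p = 0.0406). Legumain is not itself a cathepsin, so no cathepsin passed. In the granule proteases of leukocytes, which Serpina3n, Serpinb1a, Serpinb6a and Serpinb9 inhibit, 10 of 16 genes had no counts, 2 were tested and none passed; Prtn3, the one with the smallest p, lay at 1.35 CPM or lower in every library (edgeR adjusted p = 0.838). None of 11 tested genes of the plasminogen and thrombin system passed, and F2rl1, the protease-activated receptor with the smallest p, stood at 0.61 ± 0.23 on the log2 scale (edgeR adjusted p = 0.292). None of 15 tested epidermal serine proteases passed, with Hpn (hepsin) at -1.03 ± 0.36 (edgeR adjusted p = 0.248).

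Of 17 other tested protease inhibitors none passed. Timp3, an inhibitor of matrix metalloproteases, came closest, at 155 and 131 CPM in WT and 41.5 and 63.4 CPM in Foxp3-DTR (-1.45 ± 0.25, edgeR adjusted p = 0.0543). None of 19 tested collagen folding partners of Serpinh1 passed, with Col4a1, a basement membrane collagen, at -1.32 ± 0.28 (edgeR adjusted p = 0.0823). Some serpins are made by leukocytes or liver, and markers of other cells were low. Summed over 12 markers, myeloid and mast cells stood at 10.2 and 3.26 CPM in WT and 4.77 and 7.44 CPM in Foxp3-DTR, with 2 of the 12 at 0 in all libraries. The part of such cells in the serpin values was not tested. The 8 T and NK cell markers summed to at most 6.05 CPM, reached in WT A. Of 8 hepatocyte markers 4 (Alb, Ahsg, Apoh and Ambp) had no counts, and the sum was 7.81 and 5.84 CPM in WT and 0.928 and 0.709 CPM in Foxp3-DTR. Cps1 was the only one of them tested and fell (-4.54 ± 0.72, edgeR adjusted p = 0.0479). Endothelial markers summed to at most 4.74 CPM and melanocyte markers to between 18.1 and 42.9 CPM, with none past the threshold.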

How the data were processed

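The authors deposited 1 table of raw counts (reads per gene symbol, not normalized), with 1 column per library. Per the labels' protocols the libraries were made with a stranded mRNA kit. Per the submitters' processing notes, reads were handled with HTSeq 0.6.1, TopHat2 2.0.12, CASAVA 1.8.2, SAMtools 0.1.19.0 and Bowtie2 2.1.0.0 on the mm10 build. Annotation, read length and whether counting used strand are not stated in the sources used here, so reads of overlapping or antisense genes cannot be told apart.

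The 5 special rows entered neither library sizes nor tests. The whole table was fitted in R 4.3.3 with edgeR 4.0.16 (TMM, filterByExpr, robust glmQLFit, glmQLFTest, group only), with Benjamini-Hochberg adjustment over the genes tested, two-sided, and a threshold of 0.05. The SE comes from the fold change and the F statistic. The common biological coefficient of variation was 0.309. DESeq2 1.42.0 and limma-voom (limma 3.58.1) were alternatives, and the procedure was tested on simulated data. Positions, exon lengths (union of exons) and coding sequences are from GENCODE M21, aligned with MAFFT 7.526, and promoters from RefSeq.

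The members and lists were chosen with earlier results of these data known. Named were members past the threshold, with an unadjusted p under 0.05 or averaging at least 5 in log2 CPM, the Serpina3 genes with at least 10 counts, the member with the smallest p of each clade, and from each list up to 3 passing genes or the smallest p. Serpinb7, Serpinb12, Krt10 and the untested or low members named beside these were chosen after their values were seen. Of the members the rule took, 1 is not reported here. The floors cover counting error only, while the SE also takes in the spread between these libraries.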

Additional observations from a re-analysis of the deposited data

How the results depend on the processing

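Each group had 2 libraries. Over the named serpins, 185 fold changes under the alternatives kept their direction and their side of the threshold, 24 moved past it, 1 was lost (Serpina3m) and 9 turned direction, none of these past the threshold; the causes were not tested. The number of serpins higher was 5 in the edgeR test, 10 with DESeq2, 9 with no filter on low counts and 5 to 9 when 1 library was left out. The number lower was 0, with 4 at an unadjusted p under 0.05, and it was 2 with DESeq2, 0 with limma-voom and 0 to 1 when 1 library was left out (1 without Foxp3-DTR D). Over all genes, edgeR put 106 higher and 55 lower, DESeq2 485 and 513, limma-voom 70 and 23, edgeR with no filter 277 and 252, and leaving out 1 library 66 to 203 and 14 to 220. Of the context genes 9 were higher, against 17 with DESeq2 and 4 (without Foxp3-DTR C) to 12 when 1 library was left out. None was lower, against 2 with DESeq2, 2 with no filter and 0 to 3 when 1 library was left out. Directions turned for Serpinb6a with no filter (0.0016) and for Serpini1 with limma-voom (1.23). When 1 library was left out, log2 fold changes ran from -6.14 to 0.36 for Serpina3b, -4.97 to 1.44 for Serpina3j, -0.24 to 0.81 for Serpinb10, -0.49 to 0.039 (without Foxp3-DTR C) for Serpinb5, -0.11 to 0.10 for Serpinb6a and -1.44 to 0.35 for Serpini1, which was not tested without WT A. With 1 library in a group, that library is assumed to vary like the other group. No paired analysis was possible because the groups share 1 replicate letter only.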
